A study of Mus musculus with 3 samples.

Results

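The 9 genes described here encode components of the basement membrane: the laminin chains Lama4, Lama5, Lamb2, Lamb3 and Lamc1, the nidogens Nid1 and Nid2, perlecan (Hspg2) and agrin (Agrn). They were chosen by name, as all noncontrol probes that the array files assign to these names, which gave 13 probes of 60 bases for 9 of the 30199 gene names on the arrays. The study worked in RM1, an established line of mouse prostate cancer cells, and set RM1 cells transfected with MXRA7 (RM1-MXRA7) against RM1 cells transfected with a vehicle vector (RM1-VE). Both lines were grown in DMEM with 10% serum and 400 μg/mL G418, the agent that selects for the vector, and were taken in exponential growth on day 2. Total RNA of both was hybridised on 3 Agilent 2-colour arrays, with RM1-MXRA7 in Cy3 and RM1-VE in Cy5 each time. A probe thus has 3 log2 ratios, 1 from each array, with RM1-MXRA7 over RM1-VE as the direction (n = 3), and the number of arrays limits the precision. The labels do not say whether either line is 1 clone or whether the replicates were separate cultures, so p-values measure only the spread between these arrays. The dyes were not swapped, so dye bias and line cannot be told apart for any probe.

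A basement membrane is a thin sheet of extracellular matrix under epithelia and around muscle, nerve and vessels. Laminins, trimers of an α, a β and a γ chain, assemble into one network on the cell surface and type IV collagen into another. Nidogen bridges the networks by binding the laminin γ1 chain and type IV collagen. Perlecan and agrin are large proteoglycans that carry heparan sulphate and bind laminin as well as the receptor dystroglycan, and agrin is best known for clustering acetylcholine receptors at the neuromuscular junction. In carcinomas the basement membrane is the barrier that separates the epithelium from the stroma. The arrays read the RNA that the cells make for these components, and not the proteins.

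Agrin, perlecan and nidogen-1 were each read by more than 1 probe, and the results below differ between probes of a gene, so the bases they read are shown. The sequences are those in the array files, 5′ to 3′ in the sense of the transcript, and each name gives the first base of the probe in the transcript. Positions are on mm9, as in the array files. Which exon, coding part or untranslated region a probe falls in was not annotated here, and for probes near the 3′ end only the last 30 bases are printed. Capitals mark AATAAA, the polyadenylation hexamer.
Agrn 3611: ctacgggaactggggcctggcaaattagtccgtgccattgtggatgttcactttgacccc
Agrn 7303, last 30 bases: tgtgtcaatgtcaaataccatgaAATAAAg
Nid1 269: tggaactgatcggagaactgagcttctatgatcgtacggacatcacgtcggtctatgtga
Nid1 4283, last 30 bases: tagactctcccatggtaagcagagccttag
Nid1 5938, last 30 bases: aagtttacagctgtacaaatattagtgcag
Hspg2 13076: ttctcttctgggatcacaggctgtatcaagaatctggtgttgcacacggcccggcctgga
Hspg2 14023, last 30 bases: tgggagcctgaggacctgactaaggggtaa

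The Agrn probes lie on the minus strand of chromosome 4, at chr4:155546878-155546937 for base 3611 and chr4:155539415-155539474 for base 7303. Both have 1 reading frame without a stop codon over their 60 bases, and the second carries AATAAA from base 54 of the probe. Such a frame was present in 11 of the 13 probes (84.6%), against 79.6% of all 39429 distinct noncontrol probes. Of the 13 probes, 2 hold AATAAA (15.4%), searched on the sense strand only, against 12.6% of all 39429 distinct noncontrol probes. The Nid1 probe at base 269 spans chr13:13530138-13555992 on the plus strand, 25855 bases for a probe of 60, so it reads across an intron. The other Nid1 probes lie at chr13:13602780-13602839 and chr13:13604435-13604494. The Hspg2 probes lie on the plus strand at chr4:137125445-137125504 and chr4:137126392-137126451.

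In all, 21793 probes passed the filter, which asked that 1 channel or both stand well above background on every array. Across these probes, which are not independent replicates, Pearson's r between arrays was 0.778 to 0.846. On each array the log ratios drifted with the row of the spot. Each ratio is therefore given after loess, which corrects the dye ratio for spot brightness within an array, and again after removal of a smooth surface fitted over the rows and columns of each array, which took 25.5 to 34.5% of the variance. A gene is said to have risen or fallen only where limma called it in the same direction in both fits, at an adjusted p under 0.05 by Benjamini-Hochberg over all 21793 probes. The transfected gene did not check the labels. Mxra7 lay at 0.39, 0.39 and 0.15 on the 3 arrays for its brighter probe (mean 0.31 ± 0.14, SD, n = 3; limma adjusted p = 0.00407), but at -0.018 ± 0.044 with the surface removed (adjusted p = 0.826) and at -0.034 in Agilent's processed signals. Its dimmer probe gave 0.10 ± 0.041 (adjusted p = 0.28) after loess and 0.08 ± 0.053 (adjusted p = 0.296) with the surface removed. Every direction below rests on the dyes in the labels. Among markers of prostate luminal epithelium, the keratin genes Krt8 and Krt18 were well above background on all 3 arrays, and Cdh1 and Epcam were not well above background on any array in either channel.

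Agrin fell in RM1-MXRA7 cells by the probe at base 7303, and no other of the 9 genes had a probe that rose or fell. Of the 13 probes, 10 probes of 6 genes were well above background in Cy3 and Cy5 on each array, and none was saturated. The probes of Lama4, a laminin chain of vessels and muscle, of Lamb3, the β3 chain of the laminin that anchors surface epithelia, and of Nid2, the second nidogen, were not well above background in either channel on any array, so no fold is given. They lie at chr10:38825794-38825853 for Lama4, chr1:195170009-195170068 for Lamb3 and chr14:20630490-20630549 for Nid2. After loess, limma called 4 of the 10 measured probes lower in RM1-MXRA7, where 23% of all probes were called lower. It called 0 higher, where 24.3% of all probes were. Removal of the surface left 1 called lower, against 14.7% of all probes, and 1 called higher, against 15%. In either direction, the shares over all probes were 47.4% after loess and 29.6% without the surface. Both fits called 1 of 10 lower, against 10.2% of all probes, and 0 higher, against 9.54%, or 19.7% in either direction. At an unadjusted p under 0.05, 0 were higher and 5 lower after loess, against 27.4% and 27% of all probes, and 2 were higher and 1 lower with the surface removed, against 21.9% and 20.7%. The share of these 10 probes called in both fits was thus near the background.

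**Figure D1:**
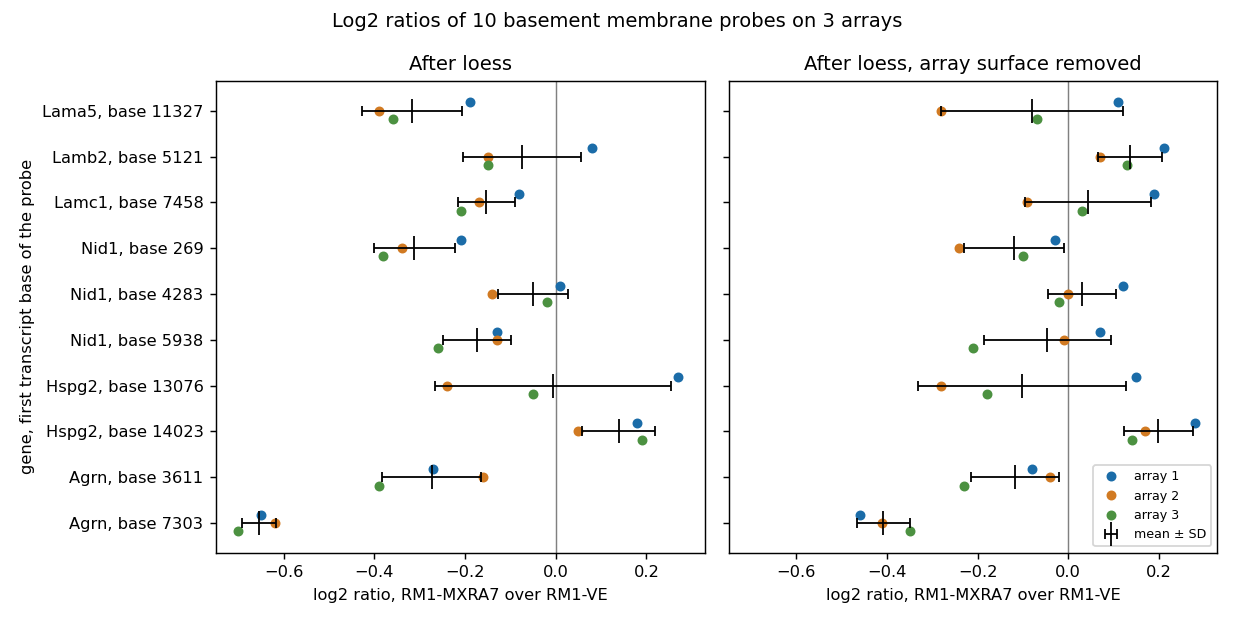
Log2 ratio of RM1-MXRA7 over RM1-VE (horizontal axis) for the 10 measured probes (vertical axis), after loess on the left and with the array surface removed on the right. Points are the 3 arrays, the vertical tick is their mean and the horizontal bar the SD; the Agrn probe at base 7303 lies at -0.70 to -0.62 on the left and -0.46 to -0.35 on the right, left of every other probe's mean.

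The Agrn probe at base 7303 gave log2 ratios of -0.65, -0.62 and -0.70 on arrays 1, 2 and 3. All 3 arrays were close together and far from 0. The mean was -0.66 ± 0.037 (SD, n = 3; limma adjusted p = 2.99e-06; 95% confidence interval -0.81 to -0.50), a 1.58-fold higher level in RM1-VE than in RM1-MXRA7. With the surface removed the arrays lay at -0.46, -0.41 and -0.35, with a mean of -0.41 ± 0.058 (SD, n = 3; limma adjusted p = 0.00124; 95% confidence interval -0.54 to -0.28), or 1.33-fold. The size of the difference thus depended on this step by over 1.5 times on the log2 scale. Agilent's processed signals, which the scanner software detrended and dye-normalised itself, gave -0.49, -0.44 and -0.37 (mean -0.43; limma adjusted p = 0.00802), and 23.5% of all probes were called on those signals. Among all 21793 probes, 1.71% had a lower mean after loess and 3.76% with the surface removed. Neighbouring spots of like brightness had a median ratio of -0.23 around this probe, averaged over the 3 arrays. With that local median subtracted, the probe lay at -0.43 and was still called (limma adjusted p = 0.00096).

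In single channels, log2 intensities of this Agrn probe in RM1-MXRA7 were 12.48, 12.42 and 12.40, and in RM1-VE 13.12, 13.04 and 13.10. Every value of one line lay below every value of the other, which held for 3 of the 10 probes and for 37.2% of all probes. The others were the Lama5 probe and the Nid1 probe at base 269.

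The Agrn probe at base 3611 reads the middle of the transcript. It gave -0.27, -0.16 and -0.39 after loess, below 0 on every array, with a mean of -0.27 ± 0.11 (SD, n = 3; limma adjusted p = 0.0083). Without array 3 the call was lost (-0.22; adjusted p = 0.0551). After surface removal the arrays lay at -0.08, -0.04 and -0.23 (mean -0.12 ± 0.097, SD, n = 3; limma adjusted p = 0.168; 95% confidence interval -0.26 to 0.02). The probe at base 7303 had -0.41 in the same fit, and the difference between the probes was not tested. For the probe at base 3611 Agilent's processed signals gave -0.53, 0.01 and -0.26 on the 3 arrays. Their mean was -0.26 (limma adjusted p = 0.135), against -0.12 in the surface-removed fit. Single-channel log2 intensities of this probe were 6.76, 7.13 and 6.94 in RM1-MXRA7 and 7.03, 7.29 and 7.33 in RM1-VE, and the lines overlapped. Its Cy3 mean signals before background correction were 101.6, 123.7 and 128.1. The Lama4 probe, not well above background on any array, had 76.32, 69.03 and 75.38 in Cy3.

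Perlecan (Hspg2), the other heparan sulphate proteoglycan among the 9, had a probe with ratios above 0 and another on both sides of 0. Its probe at base 14023 lay at 0.18, 0.05 and 0.19 after loess, above 0 on all 3 arrays (mean 0.14 ± 0.08, SD, n = 3; limma adjusted p = 0.142). With the surface taken out it lay at 0.28, 0.17 and 0.14 (mean 0.20 ± 0.076, SD, n = 3; limma adjusted p = 0.0327; 95% confidence interval 0.07 to 0.33). This was the 1 probe called higher in that fit, and the call was lost without array 1 (0.16; adjusted p = 0.106) and without array 2 (0.21; adjusted p = 0.149). Without loess, with each array only centred on the median of its unflagged noncontrol spots, this probe turned to -0.32. The median of the 21793 probes that passed the filter was -0.268 there. The probe at base 13076 gave 0.27, -0.24 and -0.05, so its arrays lay on both sides of 0 (mean -0.0067 ± 0.26, SD, n = 3; limma adjusted p = 0.957). In the second fit it lay at 0.15, -0.28 and -0.18 (mean -0.10 ± 0.23; adjusted p = 0.381), and at -0.23 without array 1 (adjusted p = 0.0203). The spread of this probe, an SD of 0.26 after loess, was larger than the difference between the lines in either direction.

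**Figure D2:**
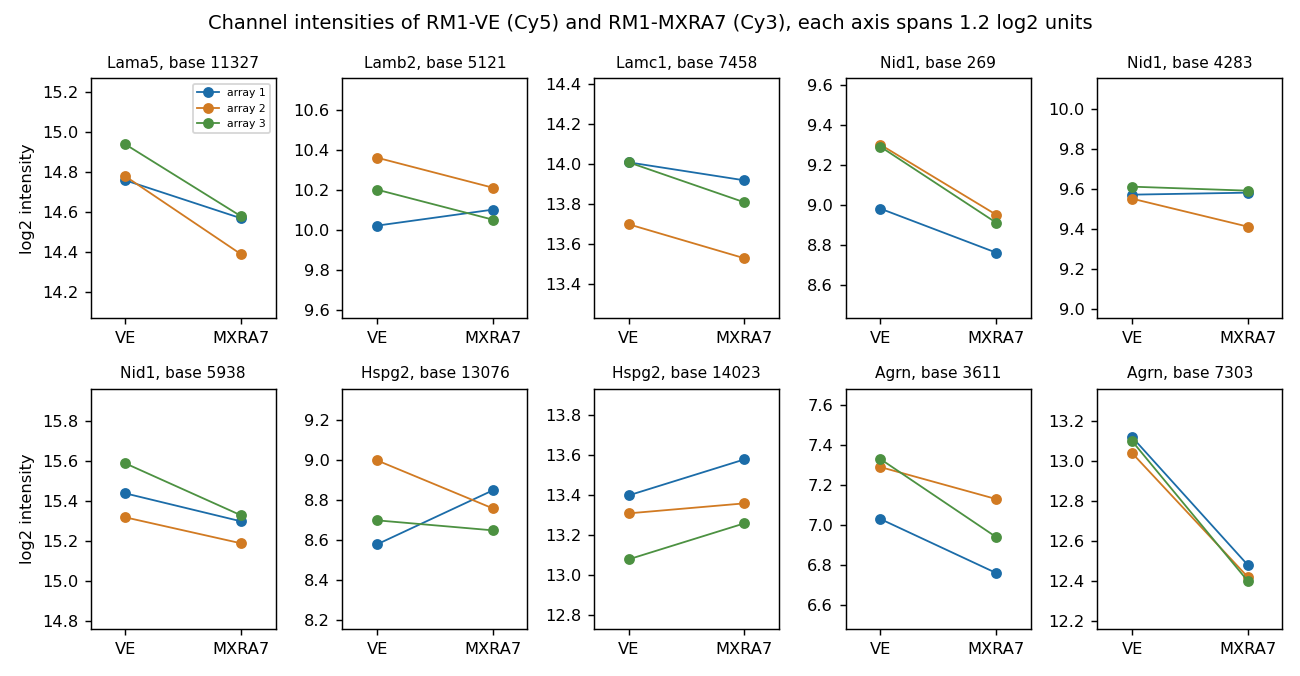
Log2 intensity after normalisation of each channel (vertical axis, 1.2 log2 units in every panel) for RM1-VE in Cy5 and RM1-MXRA7 in Cy3 (horizontal axis), 1 panel per measured probe and 1 line per array. The 3 lines of the Agrn probe at base 7303 fall steeply from 13.04 to 13.12 down to 12.40 to 12.48, and those of the Hspg2 probe at base 13076 cross; levels of different probes cannot be set against each other.

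Nidogen-1 was read by 3 probes, none of which was called in both fits. The probe at base 269, which joins sequence on either side of an intron, lay at -0.21, -0.34 and -0.38 after loess, below 0 on all 3 arrays (mean -0.31 ± 0.089, SD, n = 3; limma adjusted p = 0.00313). With the surface removed it lay at -0.03, -0.24 and -0.10 (mean -0.12 ± 0.11, SD, n = 3; limma adjusted p = 0.17; 95% confidence interval -0.26 to 0.02). The call depended on how the surface was fitted, since a surface fitted on all noncontrol spots in place of those of measured probes left it at -0.19 (adjusted p = 0.0442). The probe at base 5938 lay at -0.13, -0.13 and -0.26 (mean -0.17 ± 0.075; limma adjusted p = 0.0676) after loess and at 0.07, -0.01 and -0.21 (mean -0.047 ± 0.14; adjusted p = 0.628) with the surface removed. The probe at base 4283 was near 0 in both fits, though at -0.33 with arrays only centred on their median, with 0.01, -0.14 and -0.02 after loess (mean -0.049 ± 0.077; limma adjusted p = 0.615). After surface removal its mean was 0.030 ± 0.075 (SD, n = 3; adjusted p = 0.726; 95% confidence interval -0.10 to 0.16).

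The laminin chains were not called in both fits either. Lama5, the α5 chain found in most mature epithelial basement membranes, was read at chr2:179911079-179911138 on the minus strand. Its ratios after loess were -0.19, -0.39 and -0.36, below 0 on all 3 arrays (mean -0.32 ± 0.11, SD, n = 3; limma adjusted p = 0.00304), and the call was lost without array 2 (-0.28; adjusted p = 0.051). With the surface taken out they were 0.11, -0.28 and -0.07, on both sides of 0 (mean -0.080 ± 0.20, SD, n = 3; limma adjusted p = 0.459; 95% confidence interval -0.25 to 0.09). Single-channel log2 intensities of Lama5 were 14.57, 14.39 and 14.58 in RM1-MXRA7 and 14.76, 14.78 and 14.94 in RM1-VE.

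Lamc1 encodes the γ1 chain, which most laminins contain and which nidogen binds. Its probe, at chr1:155066156-155066215 on the minus strand, lay at -0.08, -0.17 and -0.21 after loess (mean -0.15 ± 0.063, SD, n = 3; limma adjusted p = 0.103). In the second fit it lay at 0.19, -0.09 and 0.03 (mean 0.043 ± 0.14; adjusted p = 0.649; 95% confidence interval -0.11 to 0.19), so the sign of the mean turned. Lamb2 encodes the β2 chain, found at the neuromuscular synapse and in the kidney filter. Its probe, at chr9:108392189-108392248 on the plus strand, lay at 0.08, -0.15 and -0.15 after loess (mean -0.074 ± 0.13, SD, n = 3; limma adjusted p = 0.461). With the surface removed it was above 0 on all 3 arrays, at 0.21, 0.07 and 0.13 (mean 0.14 ± 0.071; adjusted p = 0.106; 95% confidence interval 0.01 to 0.27, not adjusted over probes). With the local median subtracted instead, Lamb2 lay at 0.17 and was called higher (limma adjusted p = 0.0479). None of the 3 measured chains kept both its sign on all arrays and its call.

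Over the 10 measured probes, the median ratio was -0.164 after loess, where the median of all probes was -0.01, and -0.063 with the surface removed, where it was 0.006. After loess 6 of the 10 probes were below 0 on all 3 arrays, where 35.4% of all probes were, and 1 was above 0 on all 3, where 32.9% were. After surface removal 3 were below 0 on all 3 arrays (29.3% of all probes) and 2 above 0 (31.2%). The 10th to 90th percentiles of all probes ran from -0.327 to 0.367 after loess and from -0.24 to 0.238 with the surface removed. Of the 10 probes, 9 had means inside both ranges, as 71.2% of all probes did, and the Agrn probe at base 7303 lay outside both.

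**Figure D3:**
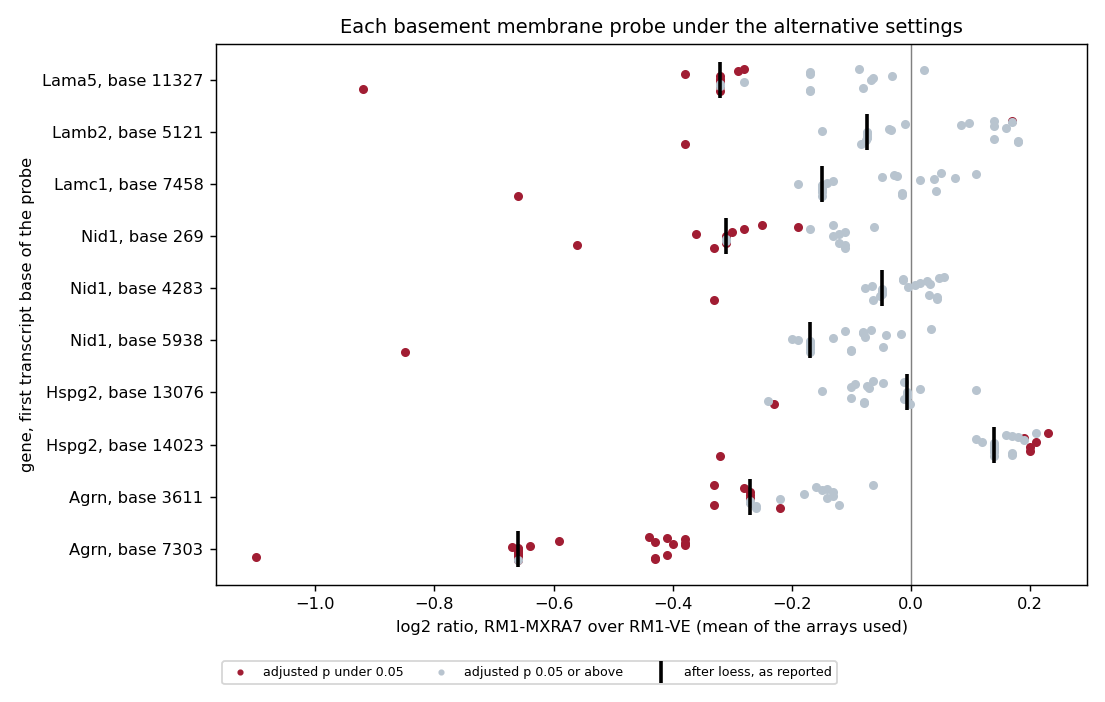
Log2 ratio of RM1-MXRA7 over RM1-VE (horizontal axis) of each measured probe (vertical axis) under every processing alternative that tested it. Dark red points have an adjusted p under 0.05 and grey points do not, and black ticks mark the value after loess; the Agrn probe at base 7303 lies between -1.1 and -0.38 throughout.

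The genes that act with these 9 were taken from lists of pathway members, each gene by its brightest measured probe. As background, both fits called 20.7% of 16820 genes, 9.76% higher and 11% lower, which was 1641 and 1845 genes. Over all genes these counts were 1628 and 1778 without array 1, 655 and 843 without array 2, and 1403 and 1689 without array 3. Of the 6 other laminin chains on the arrays, 4 were measured and none was called in both fits (by unadjusted p under 0.05, limma called 2 after loess and 0 with the surface removed, where 55.1% and 43.7% of all genes were called). Lamb1, the β1 chain that pairs with α5 and γ1, is given although it was chosen after its value was seen. It lay at -0.30 ± 0.048 (SD, n = 3; limma adjusted p = 0.00361) after loess and at -0.063 ± 0.072 (adjusted p = 0.432) with the surface removed, the same pattern of calls as Lama5. Of 6 measured collagens of the basement membrane, 2 fell and 0 rose (3 after loess and 4 with the surface removed passed an unadjusted p under 0.05 by limma, in either direction, against the same 55.1% and 43.7%). They were Col4a5 (-0.41 ± 0.29 after loess, -0.48 with the surface removed) and Col4a6 (-0.32 ± 0.054 and -0.19), neighbours on the X chromosome whose chains share a trimer. Without array 2 the count that fell was 0, and without array 3 it was 1. Without array 2 Col4a5 missed the threshold after loess (-0.25; limma adjusted p = 0.0713), and Col4a6 missed it with the surface removed (-0.20; adjusted p = 0.172), as it did without array 3 (-0.14; adjusted p = 0.187). The other 4 measured collagens, the abundant type IV chains Col4a1 and Col4a2 among them, were not called in the same direction in both fits.

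Of 14 other measured glycoproteins of basement membranes, 3 rose and 1 fell, with a median of 0.101 after loess, and 5 rose without array 1 and 2 without array 2. Fn1, fibronectin, rose, with ratios of 0.70, 0.84 and 0.66 on the 3 arrays (mean 0.73 ± 0.096, SD, n = 3; limma adjusted p = 1.12e-06) and lay at 0.87 with the surface removed. Efemp2, a fibulin that elastic fibres need, rose by 0.65 ± 0.065 on the log2 scale (limma adjusted p = 3.32e-06) and by 0.48 with the surface removed. With arrays only centred on their median neither was called, with Fn1 at 0.10 (limma adjusted p = 0.233) and Efemp2 at 0.07 (adjusted p = 0.457). Both lay above the median of the 21793 probes there, which was -0.268. Sparc, a collagen-binding glycoprotein, fell by 0.70 ± 0.047 (limma adjusted p = 1.32e-06) and by 0.49 with the surface removed, a size close to that of Agrn. A second, dimmer Sparc probe gave -0.20 after loess and -0.02 with the surface removed, so the Sparc probes also gave different values. Of 7 other measured heparan sulphate proteoglycans, 3 rose and 1 fell. Gpc1 (0.35 ± 0.081), Gpc6 (0.35 ± 0.03) and Tgfbr3 (0.35 ± 0.13), all surface proteoglycans, were the 3 that rose. They lay at 0.448, 0.475 and 0.496 with the surface removed. Gpc6 was dim, with a mean log2 intensity of 6.76 against 14.49 for Gpc1 and 12.01 for Tgfbr3. It was well above background in Cy5 on only 2 arrays. Agilent's processed signals put Gpc6 at 1.03, Gpc1 at 0.373 and Tgfbr3 at 0.478. With arrays only centred on their median, Gpc1 and Tgfbr3 lay below 0, at -0.22 and -0.027, but above the median of the 21793 probes there.

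Receptors that bind laminin or agrin moved in both directions, and of 16 measured genes 3 rose and 2 fell. For 1 of the 2 that fell, Rpsa, the calls differed between probes. Rpsa is outside the naming rule and was named after its values were seen. Its brightest probe fell (-0.228 after loess, -0.238 with the surface removed), and another was called higher in both fits (0.464 and 0.205). The remaining Rpsa probes were not called in both fits. Itga6, an integrin chain among the 3 that rose, is also outside the naming rule and was named after its values were seen. Its brightest probe lay at 0.53 after loess and 0.28 with the surface removed, and its dimmer probe at 0.74 and 0.50. Both probes were called in both fits, and the call of the brightest was lost without array 1 and without array 2. Dag1, which encodes dystroglycan, the receptor for the laminin-type domains of laminins, agrin and perlecan, gave 0.65, 0.70 and 0.44 on the 3 arrays. Its mean was 0.60 ± 0.14 (SD, n = 3; limma adjusted p = 1.53e-05) after loess and 0.27 ± 0.032 (adjusted p = 0.0081) with the surface removed, and in the second fit the call was lost without array 2 (adjusted p = 0.0765). Itga7, the laminin-binding integrin chain best known in muscle, gave -1.14, -1.14 and -1.39. Its mean was -1.22 ± 0.14 (SD, n = 3; limma adjusted p = 1.58e-09) after loess and -1.01 ± 0.08 (adjusted p = 8.73e-06) with the surface removed, a larger fall than that of Agrn. Sdc2, a syndecan, lay at 0.44 ± 0.11 after loess and 0.18 ± 0.021 with the surface removed, and the second call was lost without any one array, as was the call in Agilent's signals (0.16; limma adjusted p = 0.106). The count of receptors moved with the arrays, to 1 up and 1 down without array 1, 0 and 1 without array 2, and 3 and 3 without array 3. Lrp4 and Musk, through which agrin signals at the neuromuscular junction, were not well above background on any array in either channel. The same held for both probes of Itgb1, the β1 integrin chain that pairs with Itga7, whose own probe was well above background on all 3 arrays. A lack of signal at these probes does not show that the genes are silent.

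Enzymes that build or trim what these proteins carry were also counted. Of 18 measured names among enzymes that glycosylate dystroglycan for laminin and agrin binding, of which Tmem5 is an older name of Rxylt1, 2 rose and 0 fell (6 after loess and 7 with the surface removed passed an unadjusted p under 0.05 by limma, in either direction, against 55.1% and 43.7% of all genes). They were Dpm1 (0.57 ± 0.034 after loess, 0.21 ± 0.13 with the surface removed) and Dpm2 (0.21 ± 0.11 and 0.17 ± 0.0083), subunits of the synthase that makes the mannose donor. Leaving out any 1 of the 3 arrays ended the call of each in at least 1 of the fits, and the count was then 1, 0 and 1 without arrays 1, 2 and 3, from other genes of the list. Agilent's processed signals called neither (limma adjusted p = 0.118 for Dpm1 and 0.112 for Dpm2). With arrays only centred on their median Dpm2 lay at -0.22, where the median of the 21793 probes was -0.268. Of 19 measured genes that make, sulphate or desulphate heparan sulphate, the chain on agrin and perlecan, 6 rose and 3 fell, with 4 and 2 without array 2. The sulphatase Sulf2 rose by 0.95 ± 0.38 (limma adjusted p = 1.84e-06), the sulphotransferase Ndst3 by 0.66 ± 0.21 and the linker enzyme B3galt6 by 0.56 ± 0.15. Without the surface Sulf2 lay at 0.61, Ndst3 at 0.85 and B3galt6 at 0.31, the last with an adjusted p of 0.0965 by limma without array 2. Sulf2 then moved to 0.37 without array 1. The 3 that fell are outside the naming rule and were named after their values were seen. Glce lay at -0.35 after loess and -0.39 with the surface removed, Hs2st1 at -0.35 and -0.55, and Ndst1 at -0.30 and -0.28. The dimmer Ndst1 probes were not called in both fits. Of 14 measured proteases and heparanase that act on basement membranes, 4 rose and 1 fell, with 6 and 3 without array 1. The 1 that fell was Mmp2, a gelatinase outside the naming rule and named after its value was seen, which was not well above background in RM1-MXRA7 on any array. It was at least 3.32-fold higher in RM1-VE (limma adjusted p = 1.02e-11), a bound set against the higher of its own signal and the lowest signal well above background on each array. The stromelysin gene Mmp3 rose by 1.32 ± 0.29 on the log2 scale, Mmp13, a collagenase, by 0.82 ± 0.24 and Plat, which activates plasminogen, by 0.85 ± 0.11, and with the surface removed they lay at 1.05, 0.71 and 0.51.

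**Figure D4:**
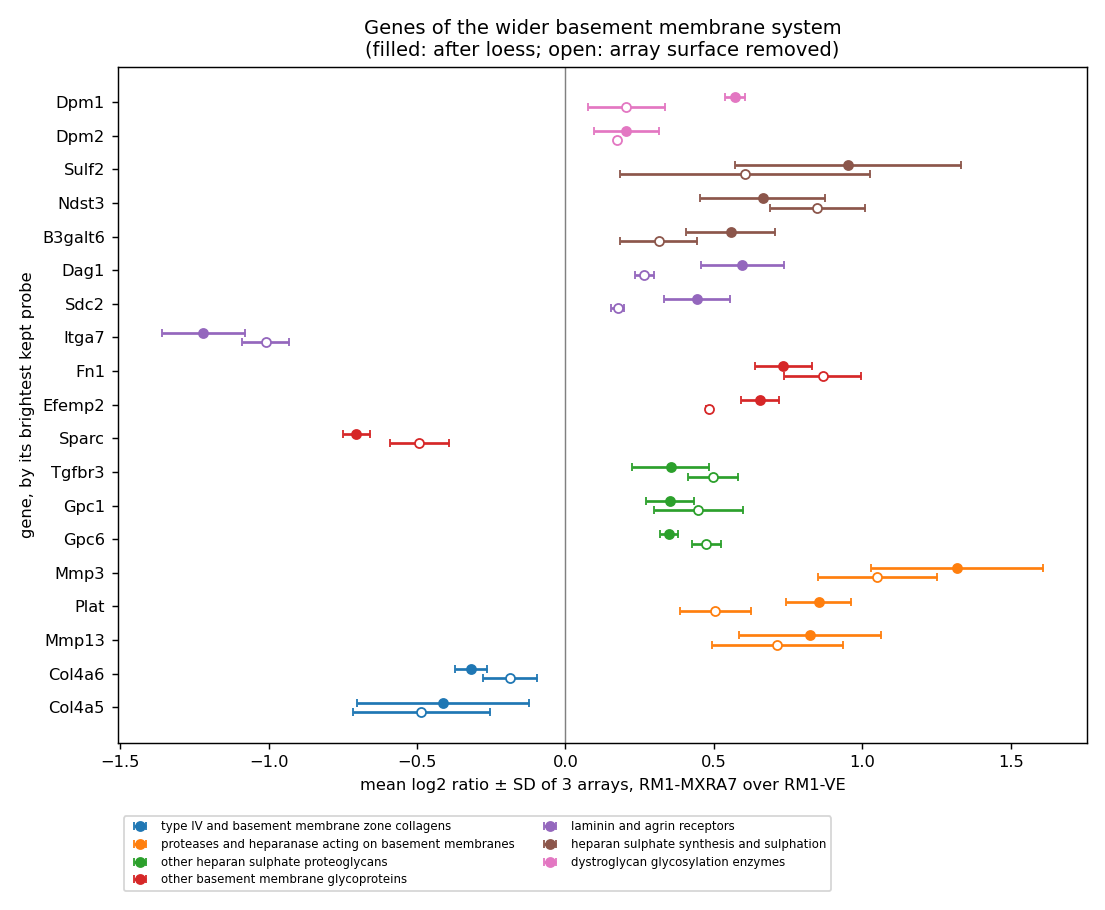
Mean log2 ratio ± SD of 3 arrays (horizontal axis), RM1-MXRA7 over RM1-VE, of genes that act with the 9 and meet the naming rule (vertical axis). They are coloured by list, with filled points after loess and open points with the array surface removed. All were called in both fits; Itga7 lies lowest at -1.22 and Mmp3 highest at 1.32, and Dag1, Dpm1 and Sdc2 lie nearer 0 in the open points.

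Markers of other cell types were read beside these results. Of 4 measured mesenchymal markers 2 fell, Col1a1 (log2 ratio -1.82 ± 0.21, SD, n = 3) and Acta2 (-0.71 ± 0.46, and -0.45 without array 1), and Vim and Pdgfrb were not called in both fits. Col1a1 lay at -1.75 and Acta2 at -0.70 with the surface removed. Of 3 measured endothelial markers Cdh5 fell by 0.87 ± 0.28 after loess and lay at -0.72 with the surface removed. Of 2 basal epithelial markers Trp63 fell by 0.52 ± 0.06 at its brightest probe, which lay at -0.33 with the surface removed. The other Trp63 probes were not well above background on any array in either channel. Of 2 leukocyte markers Cd14 rose by 0.34 ± 0.15 after loess and lay at 0.18 with the surface removed. With the surface removed, the call on Trp63 was lost without array 2 (limma adjusted p = 0.0522) and that on Cd14 without array 1 (adjusted p = 0.0854) or array 2 (adjusted p = 0.267). Krt14, Kdr, Pecam1 and Cd3e were also well above background, in Cy3 and in Cy5 on each array, and were not called in both fits. A dimmer Kdr probe was not well above background on any array in either channel. Krt5, Tek and Ptprc of the same lists were not well above background on any array in either channel. The part of these markers in the Agrn result was not tested.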

How the data were processed

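RNA of RM1-MXRA7 (Cy3) and RM1-VE (Cy5) was measured on 3 arrays of 1 slide and 1 scan date, with 43020 noncontrol spots of 39429 distinct probes. Per the file headers, the authors deposited Agilent Feature Extraction output (version 10.7.1.1, per the submitters' processing notes): mean and background intensity of each spot, processed intensity, and the log10 of red over green, used only to check the direction. The series matrix that the authors deposited is a linear ratio per probe. It matched processed green divided by processed red to within 1% in 100% of probes compared, uncentred, with medians of 1.02, 1.03 and 0.972.

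In limma 3.58.1 under R 4.3.3, intensities were corrected with normexp (offset 50) and loess, controls at weight 0. Controls and flagged outliers were dropped, and replicate spots averaged. Log2 ratios of 21793 probes (well above background in Cy3, Cy5 or both on every array) were tested against 0 with lmFit and eBayes and Benjamini-Hochberg adjustment (15.9 prior and 2 residual degrees of freedom). The surface was a polynomial of degree 4 in row and column, alone and times log2 intensity, fitted per array on spots of measured probes. This set of spots replaced all noncontrol spots after values under both had been seen. Single-channel values had loess and Aquantile. The arrays' gene names were brought to RefSeq symbols by accession for 27508 probes, and 11921 kept their name. With 3 arrays an exact sign-flip test of 1 probe cannot go below p = 0.25, so no such test is given.

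Members and pathway lists were chosen with earlier results of these data known. Named genes are Mxra7, all members and, per list, up to 3 genes of smallest adjusted p called in both fits, well above background in both channels on at least 2 arrays. The steps were tested on simulated data. Samples are paired by array, and every ratio is taken within its pair. Alternatives covered background correction, normalization, filter, probe collapse, the methods of testing, the surface and each array left out. The alternatives to the surface of degree 4 (other degrees, spots or local medians) and its fits with an array left out were added after the data were seen. Some cell type markers are not reported here.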

Additional observations from a re-analysis of the deposited data

How the results depend on the processing

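The Agrn probe at base 7303 stayed below 0 under all 23 alternatives, at -1.1 to -0.38, and was called in 22 of them. It missed the threshold with a plain t statistic without moderation (adjusted p = 0.0887), which called 2 of all probes and 0 of the 10. Not all 23 alternatives are separate checks. The series matrix repeats Agilent's processed signals, and single channels with the replicate block repeat the loess fit. Alternatives of filter, probe collapse or method of testing alone keep the loess ratio. After loess all 10323 calls over all probes compare with 5122 in Agilent's processed signals and in the series matrix, 6453 with the surface removed, 5684 with degree 2 and 6815 with the local median removed. Member probes called lower were 4 after loess, where 5019 of all 21793 probes were. They were 1 in Agilent's signals, the series matrix, with the surface removed at degree 4, 2 or 6 and with the local median, 2 with the surface of all noncontrol spots and 2 with 1 probe per gene, which leaves 6 probes. Calls lower over all probes were 2614 in Agilent's signals and the series matrix, and 3193, 2810 and 3446 at degrees 4, 2 and 6. They were 3513 with the local median, 3497 with the surface of all noncontrol spots and 3925 of 16752 with 1 probe per gene. Called higher were 1 with the surface removed at degree 4, at degree 6 or fitted on all noncontrol spots, and 2 with the local median, Lamb2 and Hspg2 at base 14023. Calls higher over all probes were 3260, 3543, 3402 and 3302 in these 4 settings. A local median of a narrow window gave 8549 calls, 4479 higher and 4070 lower. It called 0 members higher and 3 lower, with Lama5 (-0.28) and the Nid1 probe at base 269 (-0.25) still called. Median centring without loess put the median of the 21793 probes at -0.268. It called 9 of the 10 lower, where it called 12295 of the 21793 lower, and left 9.48% of all calls higher against 51.4% after loess. Leaving out an array after loess gave 6648 to 9118 calls over all probes, 3295 to 4158 of them lower, and 3 to 4 lower members. With the surface also removed it gave 6877, 2255 and 5913 calls, with 0 to 1 higher and 1 to 2 lower members. Of these calls, 3532, 1048 and 2963 were higher and 3345, 1207 and 2950 lower. Single channels with the replicate block gave 10323 calls, 5019 of them lower, and 4 members lower. Without the block there were 2701 calls, 1239 of them lower, and 1 member lower.

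Signs turned mostly for probes that were not called after loess. Lamb2 turned to 0.18 in Agilent's signals and the series matrix, to 0.14 with the surface removed, 0.16 and 0.14 at degrees 2 and 6, 0.085 for all noncontrol spots, 0.17 with the local median, and 0.098 to 0.17 with the surface removed and an array left out. Of these turned values, the one with the local median was called (limma adjusted p = 0.0479). Lamc1 turned to 0.043 with the surface removed, 0.016 and 0.039 at degrees 2 and 6, 0.074 for all noncontrol spots, and 0.051 to 0.11 with the surface removed and array 2 or 3 left out. The Nid1 probe at base 4283 turned to 0.044 in Agilent's signals and the series matrix, 0.03 with the surface removed, 0.0073 and 0.032 at degrees 2 and 6, 0.016 for all noncontrol spots, 0.027 with the local median and 0.047 to 0.056 with the surface removed and array 2 or 3 left out. With the surface removed and an array left out, Lama5 turned to 0.022 and the Nid1 probe at base 5938 to 0.033. After loess the Hspg2 probe at base 13076 ran from -0.15 to 0.11 without an array, above 0 without array 2 or 3. Median centring turned the Hspg2 probe at base 14023 to -0.32, Dpm2 to -0.22, Gpc1 to -0.22 and Tgfbr3 to -0.027, and the Mxra7 probes to -0.029 and -0.023. The brighter Mxra7 probe also turned to -0.034 in Agilent's signals and the series matrix, -0.018 with the surface removed, -0.0066 and -0.0088 at degrees 2 and 6, -0.068 with the local median and -0.044, -0.0087 and -0.0029 with the surface removed and array 1, 2 or 3 left out. Leaving out an array after loess turned neither Lamb2, Lamc1, the Nid1 probe at base 4283 nor the brighter Mxra7 probe. The cause of these turns was not tested. Signal over background limits Lama4, Lamb3 and Nid2, which have no measured ratio.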
